A study of Mus musculus and Acomys cahirinus with 84 samples.

Results

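Hmgcs1, Idi1, Fdft1, Sqle, Srebf2, Insig1 and Abca1 are 7 genes of cholesterol supply that were followed across every dose, time and population of an irradiation experiment on skin fibroblasts. They were chosen by name and read from the count tables as the rows with these symbols, 7 of 56980 gene identifiers in the mouse table and 7 of 19818 gene names in the *Acomys cahirinus* table. The samples were primary skin fibroblasts of 3 populations, namely mice labelled C56BL6, mice labelled wild, and the African spiny mouse *A. cahirinus*, and polyA RNA was sequenced as stranded mRNA libraries. Each population had 7 groups of 4 libraries, 84 in all. At 24 h the groups were untreated, 10 Gy and 20 Gy of gamma radiation. At 12 d they were untreated, 10 Gy, 20 Gy and a group labelled untreated passaged. Each replicate number carried 1 animal code within a population, so the 4 numbers stand for 4 cultures by label, and neither the genotype beyond the population name nor the animals' age is given in the sources used here. All 24 h libraries carried batch label B1 and all 12 d libraries B2. An effect of time and one of batch therefore cannot be told apart, and no test was made between the times.

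Cells make cholesterol from acetyl-CoA through the mevalonate pathway. Hmgcs1 is the cytosolic HMG-CoA synthase at its start, Idi1 the isomerase that makes dimethylallyl diphosphate, Fdft1 (squalene synthase) the first enzyme committed to sterols, and Sqle the squalene epoxidase that follows it. Srebf2 encodes SREBP2, the transcription factor that switches these genes on when membrane sterol is low, and Insig1 encodes the membrane protein that holds the SREBP2 complex in the endoplasmic reticulum when sterol is plentiful and is itself a target of SREBP2. Abca1 encodes the transporter that passes cholesterol out of the cell to apolipoprotein A-I and is a target of the sterol-sensing LXR receptors, so its mRNA commonly moves against that of the synthesis enzymes. None of the 7 is an uptake receptor, and genes of sterol uptake were counted in a second list.

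The stretches in front of the genes are shown because SREBP2 acts on its targets through such sequence. RefSeq start sites of the build GRCm38.p6 gave a 250-base window before the start for 5 of the 7 genes. The start sites at hand held no entry for Fdft1 or Sqle. A pair of letter patterns was searched on both strands, TCACNCCA (opposite strand TGGNGTGA), a form of the sterol regulatory element, and the CCAAT box (opposite strand ATTGG). The letters searched were chosen after the starts of these promoters had been seen. Matches are in capitals in the sequences, which run 5′ to 3′ toward the start site, and positions are counted back from the start.
Hmgcs1 (chr13:119690101-119690350, plus strand): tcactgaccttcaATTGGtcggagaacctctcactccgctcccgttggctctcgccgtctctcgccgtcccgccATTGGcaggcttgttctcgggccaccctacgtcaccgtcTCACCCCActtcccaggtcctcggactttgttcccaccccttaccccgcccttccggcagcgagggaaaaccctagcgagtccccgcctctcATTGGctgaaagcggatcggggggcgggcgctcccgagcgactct
Idi1 (chr13:8885356-8885605, plus strand): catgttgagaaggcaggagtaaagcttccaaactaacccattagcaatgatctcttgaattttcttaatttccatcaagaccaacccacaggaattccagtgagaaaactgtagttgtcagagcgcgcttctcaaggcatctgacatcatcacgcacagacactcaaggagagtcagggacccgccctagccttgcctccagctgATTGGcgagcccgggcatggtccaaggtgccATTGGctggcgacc
Srebf2 (chr15:82147019-82147268, plus strand): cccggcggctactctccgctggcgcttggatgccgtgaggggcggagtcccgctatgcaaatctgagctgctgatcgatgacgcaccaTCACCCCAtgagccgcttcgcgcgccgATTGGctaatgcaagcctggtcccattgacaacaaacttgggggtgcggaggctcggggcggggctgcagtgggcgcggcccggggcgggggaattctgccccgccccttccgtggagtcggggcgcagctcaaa
Insig1 (chr5:28071162-28071411, plus strand): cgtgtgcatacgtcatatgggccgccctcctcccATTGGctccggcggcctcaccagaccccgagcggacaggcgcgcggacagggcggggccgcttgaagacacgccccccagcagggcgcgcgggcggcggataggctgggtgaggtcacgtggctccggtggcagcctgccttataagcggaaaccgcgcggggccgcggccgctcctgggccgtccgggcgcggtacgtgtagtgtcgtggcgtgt
Abca1 (chr4:53159896-53160145, minus strand): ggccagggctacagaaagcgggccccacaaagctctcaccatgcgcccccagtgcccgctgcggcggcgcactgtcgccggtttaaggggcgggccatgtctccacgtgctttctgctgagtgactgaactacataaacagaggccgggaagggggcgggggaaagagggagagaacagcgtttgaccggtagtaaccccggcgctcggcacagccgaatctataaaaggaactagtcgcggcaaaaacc
Hmgcs1 and Srebf2 each held 1 match to TCACNCCA, spelled TCACCCCA and starting at -137 and -162. In all 32851 windows of this length the pattern was found in 1207, or 3.67%. The CCAAT box was found in 33.8% of all windows. It occurred at -237, -176 and -45 in Hmgcs1, at -45 and -14 in Idi1, at -135 in Srebf2 and at -216 in Insig1, and no match lay in the Abca1 window. Among 13 other synthesis enzymes with an entry, 1 held TCACNCCA and 12 held a CCAAT box. A match is a run of letters and was not tested as a binding site.

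In the mouse annotation of GRCm39 used for the counts, Hmgcs1 (ENSMUSG00000093930) lies on chromosome 13 from 120151915 to 120169796 and Idi1 (ENSMUSG00000058258) on the same chromosome from 8935537 to 8942487. Fdft1 (ENSMUSG00000021273) lies on chromosome 14 from 63382599 to 63417027. Sqle (ENSMUSG00000022351) and Srebf2 (ENSMUSG00000022463) are on chromosome 15, at 59186926 to 59203041 and 82031382 to 82089580. Insig1 (ENSMUSG00000045294) spans 28276361 to 28283660 on chromosome 5 and Abca1 (ENSMUSG00000015243) 53030787 to 53159895 on chromosome 4. Counts were summed over all exons of a gene without regard to strand. Exons of Fdft1 share 774 bases, 18.8% of its length, with Ctsb on the opposite strand, Hmgcs1 shares 12.1% with Gm48342 and Idi1 shares 9.21% with Gm48574, and a read within a shared stretch was assigned to neither gene. In the *A. cahirinus* annotation Fdft1 shares 786 bases, 9.71% of its length, with Ctsb, and none of the others shares exons.

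Total counts per library (in M) ranged from 26.7 to 39.8 for C56BL6, from 17.4 to 36 for wild and from 25.6 to 52.9 for *A. cahirinus* cultures, and the lowest count of any of the 7 genes in a library was 13 reads, for Idi1. That library, wild replicate 1 at 24 h and 10 Gy, stood apart with 17843 genes detected. At 12 d, wild replicates 1 and 4 had 0 genes present throughout the one and missing throughout the other, against 7 to 21 for the other wild pairs, whereas at 24 h the same numbers had 24 such genes. C56BL6 replicates 3 and 4 also had 0 such genes, at both times. Whether any of these numbers stand for the same or a closely related animal was not tested, and counts without single replicate numbers are given below. Summed keratinocyte markers (Krt5, Krt10, Krt14 and Trp63) stood at 198 to 868 counts per M (CPM) in the 7 libraries of C56BL6 replicate 1 and at 1.01 to 3.39 CPM in the other 21 C56BL6 libraries. Each of 6 fibroblast markers was detected in every group. Mean Lum was under 1 CPM in the mouse groups at 24 h and in passaged mouse cultures. Summed pericyte and smooth muscle markers ranged from 33.6 to 2730 CPM between untreated wild cultures at 24 h. In *A. cahirinus* they ranged from 291 to 1570 CPM at 12 d and 20 Gy. Their part in the results was not tested. In a culture, fewer cells of a type and less RNA of a gene per cell cannot be told apart.

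Levels between genes were compared per kb of exon, as RPKM, within a population. In untreated C56BL6 cultures at 12 d, Srebf2 was at 22.3 ± 4.02 RPKM (SD, n = 4), Hmgcs1 at 21.4 ± 2.57, Sqle at 20.3 ± 2.97, Fdft1 at 16.8 ± 1.44 and Insig1 at 15.6 ± 3.08, each overlapping its neighbour in this order. Abca1 followed at 10.54 ± 3.54 RPKM, and Idi1, at 3.72 ± 0.639 RPKM, lay below all others with no overlap. In untreated wild cultures at 12 d, Srebf2 was again first at 15.1 ± 1.75 RPKM and Idi1 last at 1.43 ± 0.831 RPKM, with no overlap between Idi1 and Abca1 at 4.80 ± 1.59 RPKM. *A. cahirinus* had another order: Srebf2 was first at 16.7 ± 0.798 RPKM without overlap, Hmgcs1 (8.999 ± 0.355), Sqle (8.62 ± 0.974) and Fdft1 (7.97 ± 1.19) overlapped, and Idi1 at 5.73 ± 0.127 RPKM stood above Insig1 at 4.76 ± 0.181 RPKM without overlap. Abca1 had the lowest mean, 3.58 ± 1.94 RPKM, but overlapped Insig1, and its replicate 2 lay above the Idi1 libraries. Gene lengths come from 2 different annotations, so the order was read within each population only. The lengths include stretches shared with other genes, where reads were not counted. RPKM of Fdft1, and of Hmgcs1 and Idi1 in the mice, may therefore be too low against the other genes.

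**Figure D1:**
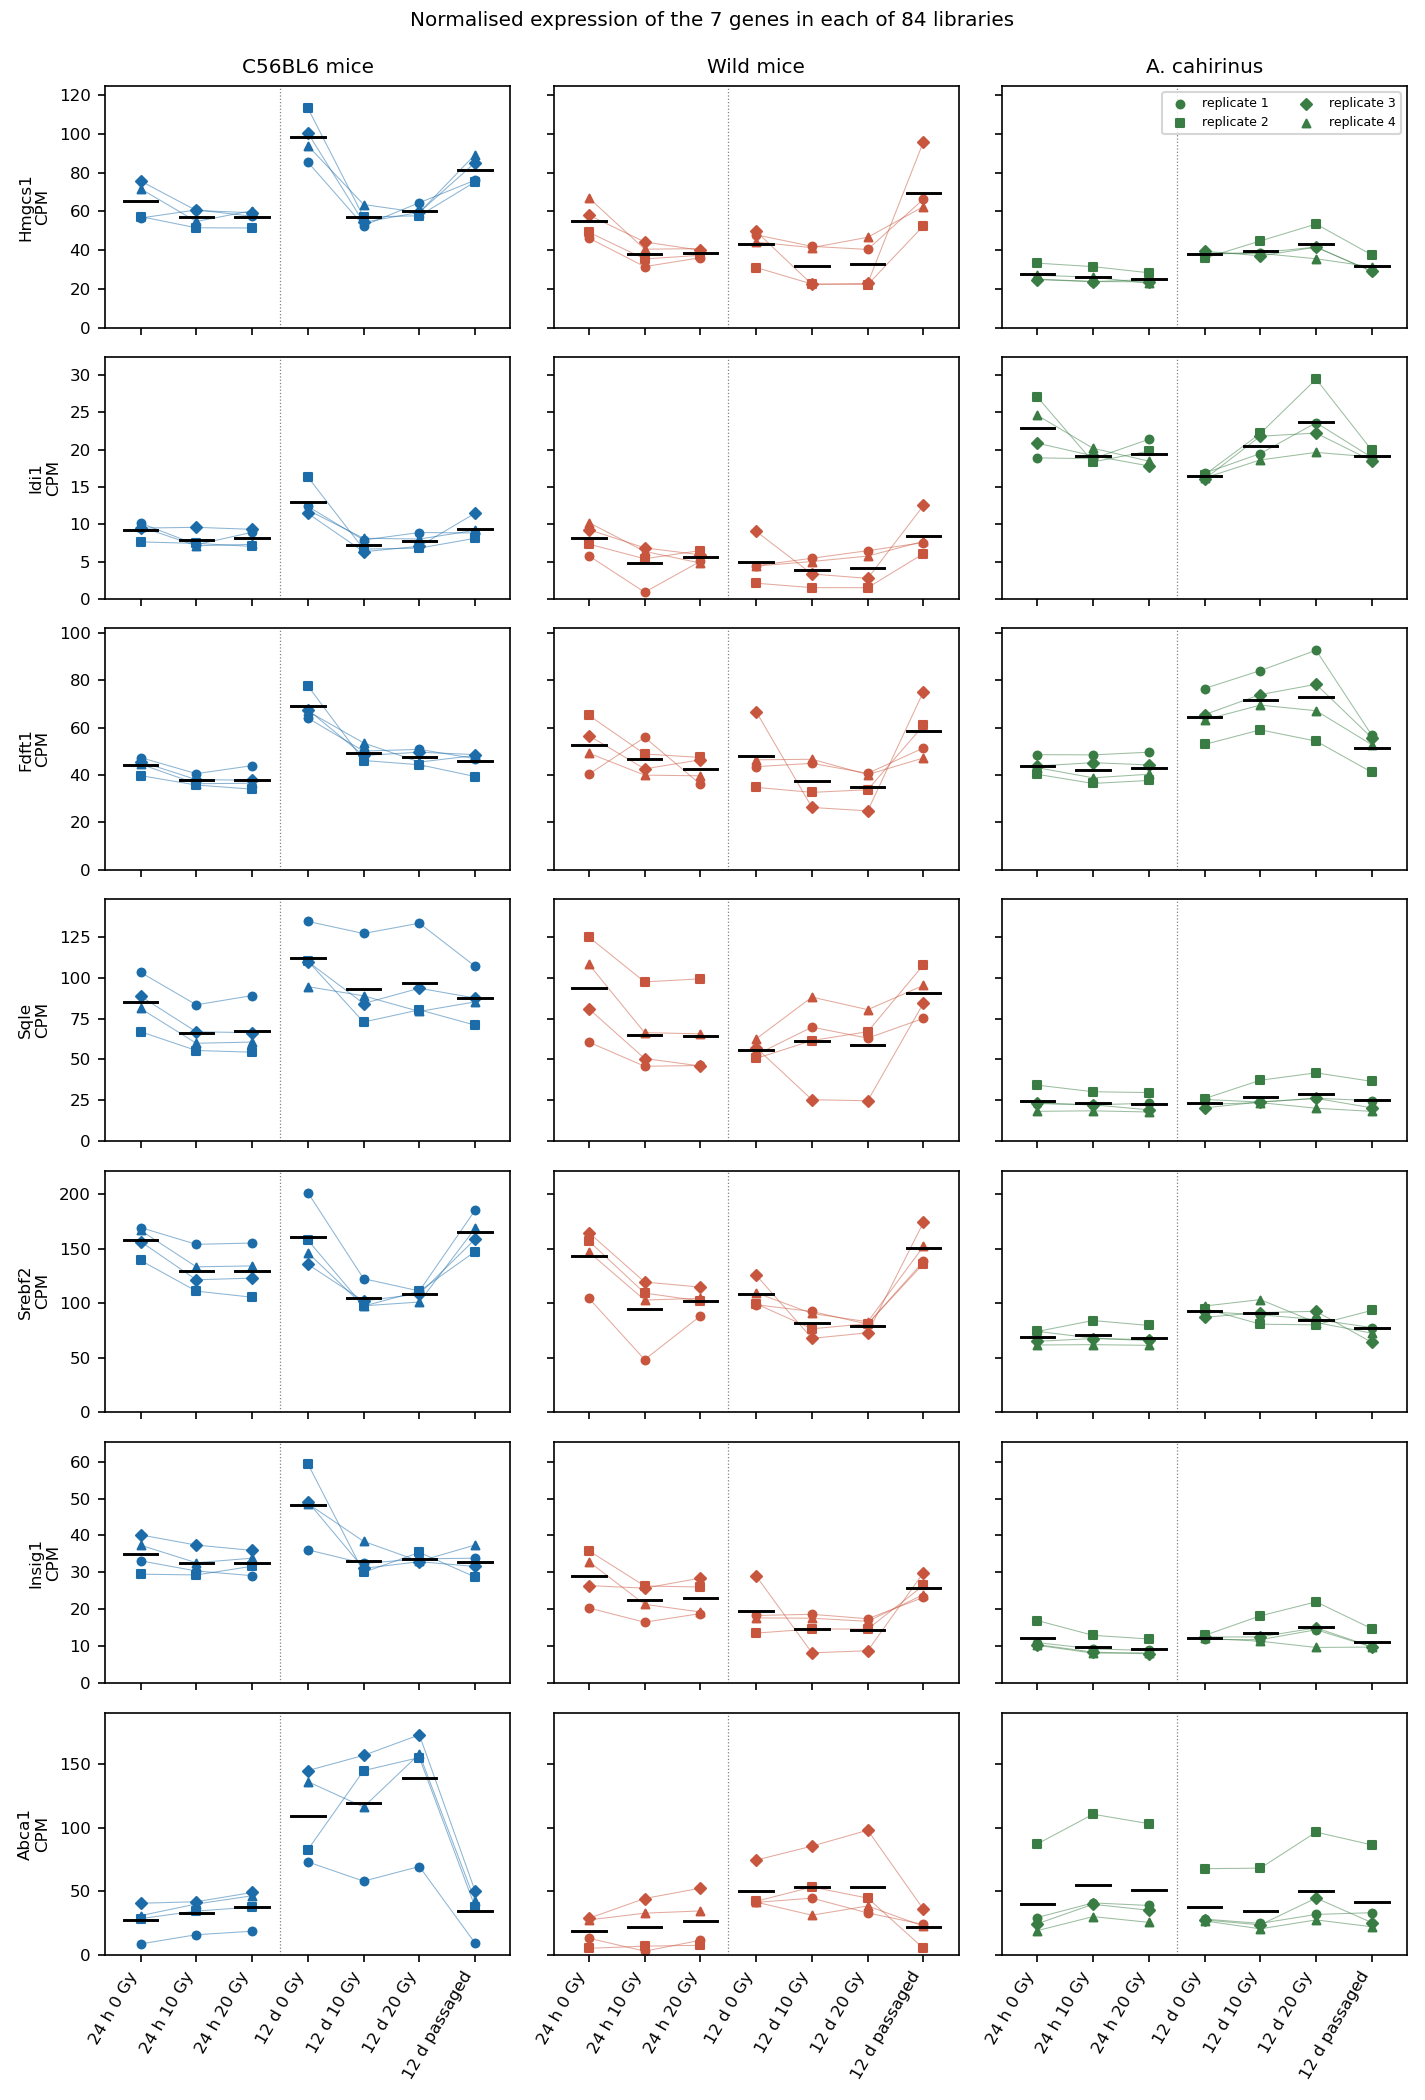
Normalised expression of each gene (rows; y axis, CPM) in all 84 libraries, by population (columns) and group (x axis). Points are libraries, thin lines join the same replicate number within a time, black bars are group means, and the dotted line separates the 2 times. In C56BL6 mice at 12 d the Hmgcs1 points at 10 and 20 Gy (52.6 to 64.4 CPM) lie below all 4 untreated points (85.4 to 113 CPM), while in *A. cahirinus* Idi1 at 20 Gy (19.6 to 29.5 CPM) lies above the untreated points (16.1 to 16.9 CPM).

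The clearest change of the enzymes was in C56BL6 mice at 12 d, where 5 of the 7 genes were lower after 20 Gy than in untreated cultures: Hmgcs1, Idi1, Fdft1, Srebf2 and Insig1. In this comparison 26.5% of 15119 genes tested passed an adjusted p of 0.05 in either direction (edgeR's quasi-likelihood test with Benjamini-Hochberg adjustment, used for every adjusted p below unless DESeq2 is named), and 13.6% passed as lower. The median log2 change of the 7 genes was -0.49, against -0.01 over all genes tested. Hmgcs1 was at 85.4, 113, 100.4 and 93.8 CPM in untreated replicates 1 to 4 and at 64.4, 57.7, 59.5 and 59.4 CPM after 20 Gy. All treated libraries lay below all untreated ones, and the log2 change was -0.65 ± 0.09 (SE, n = 4 per group, adjusted p = 0.00269). Idi1 was at 12.4, 16.3, 11.5 and 11.9 CPM untreated and 8.89, 6.80, 7.05 and 8.02 CPM after 20 Gy, again without overlap, with a log2 change of -0.71 ± 0.15 (adjusted p = 0.0124). For Fdft1 the values were 64, 77.6, 67.5 and 66.9 CPM untreated against 50.8, 44.3, 49.6 and 45.5 CPM, a log2 change of -0.49 ± 0.08 (adjusted p = 0.00505), and the groups did not overlap.

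Sqle, the fourth enzyme, did not pass. It was at 134.6, 110.4, 110.0 and 94.6 CPM untreated and at 133.5, 80.4, 93.7 and 79.4 CPM after 20 Gy. The groups overlapped, because replicate 1 was the highest library in both, although Sqle was lower in 4 of 4 animals, and the log2 change was -0.17 ± 0.18 (adjusted p = 0.540, or 0.0902 in a fit blocked by replicate number). The regulators moved with the other enzymes. Srebf2 was at 201.5, 157.9, 135.7 and 146.3 CPM untreated and at 111.2, 111.0, 108.6 and 101.1 CPM after 20 Gy, with no overlap and a log2 change of -0.52 ± 0.12 (adjusted p = 0.0174). Insig1 was at 36.1, 59.4, 49.1 and 48.6 CPM untreated and at 33.7, 35.4, 32.9 and 33 CPM after 20 Gy, a log2 change of -0.47 ± 0.14 (adjusted p = 0.0376), with untreated replicate 1 only just above the treated range. Each of the 5 genes was lower in 4 of 4 animals.

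Abca1 did not follow this direction. It was at 73.0, 82.6, 145.0 and 136.3 CPM untreated and at 69.4, 155.3, 173.2 and 158.1 CPM after 20 Gy, higher in 3 of 4 animals, with overlapping groups and a log2 change of 0.40 ± 0.33 (adjusted p = 0.397). After 10 Gy, 4 of the 7 genes were lower, where 20.9% of genes passed in either direction and 10.6% as lower. These were Hmgcs1 (-0.73 ± 0.10, adjusted p = 0.00383), Idi1 (-0.79 ± 0.15, adjusted p = 0.0106), Fdft1 (-0.42 ± 0.08, adjusted p = 0.0109) and Srebf2 (-0.56 ± 0.14, adjusted p = 0.0263). Insig1 had a log2 change of -0.49 ± 0.15 (adjusted p = 0.0510, or 0.0229 with the block, where 38.8% of genes passed). No gene of the 7 differed between 20 and 10 Gy in C56BL6 mice at 12 d, where 0.0% of genes passed, 0 of the 7 had an unadjusted p under 0.05, and DESeq2 called 0. The 2 doses share the untreated libraries, so these are not independent results.

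At 20 Gy the count of 5 went to 2 (Hmgcs1 and Fdft1) without replicate 2, 3 or 4. It was 5 without replicate 1, the animal with the keratinocyte markers, where Hmgcs1 had a log2 change of -0.75 and an adjusted p of 0.000947. At 10 Gy the count was 5 without replicate 1 and 1, 0 and 1 without replicates 2, 3 and 4. Summed fibroblast markers (Col1a1, Col1a2, Pdgfra, Dcn, Lum and Thy1) also differed between these groups, at 17600 to 20800 CPM untreated and 7280 to 8390 CPM after 20 Gy, with none of the 6 at 0. Summed adipocyte markers went from 10.5 to 45.1 CPM untreated to 3.43 to 12.9 CPM, and immune cell markers from 6.82 to 9.63 CPM to 16 to 22.4 CPM. Pericyte and smooth muscle markers averaged 82.1 CPM untreated and 152 CPM after 20 Gy, and melanocyte markers 3.56 and 2.34 CPM, both without overlap. The part of these markers in the result was not tested.

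Other genes of the pathway were counted in C56BL6 mice at 12 d, where 26.5% of all genes passed after 20 Gy and 13.6% as lower. Of 16 further synthesis enzymes, 8 fell after 20 Gy and 0 rose, with a median log2 change of -0.52 against -0.01 over all genes. The 3 with the smallest adjusted p were Ebp, the sterol isomerase (-0.69, adjusted p = 0.00221), Acat2, which condenses acetyl-CoA at the entry of the pathway (-0.71, adjusted p = 0.00457), and Dhcr7, the reductase of the last step to cholesterol (-0.83, adjusted p = 0.0049). Of 10 genes of SREBP processing and sterol uptake, 4 fell and 0 rose, among them Insig2 (-0.38, adjusted p = 0.00975), the lipoprotein receptor Scarb1 (-1.05, adjusted p = 0.0112) and the sterol carrier Stard4 (-0.57, adjusted p = 0.015). Of 12 genes of efflux, LXR signalling and intracellular cholesterol handling, 1 rose and 3 fell. The one that rose was Ch25h, which makes 25-hydroxycholesterol (2.02, adjusted p = 0.0142), and those that fell included the lysosomal acid lipase Lipa (-0.35, adjusted p = 0.00916) and the LXR receptor Nr1h2 (-0.19, adjusted p = 0.0406). Of 10 genes of fatty acid synthesis, 1 rose (Me1, 0.40, adjusted p = 0.0294) and 1 fell (Fads1, -0.40, adjusted p = 0.0377), with a median of -0.08.

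Wild mice at 12 d gave 0 calls among the 7 genes after 20 Gy, in a comparison where 0.0694% of genes passed; 1 gene had an unadjusted p under 0.05. That gene was Srebf2, at 98.6, 99.4, 125.7 and 109.6 CPM untreated and 80.8, 81.2, 72.9 and 83.0 CPM after 20 Gy. The groups did not overlap and the log2 change was -0.41 ± 0.11 (adjusted p = 0.177, 0.0446 with the block, and 0.0148 by DESeq2). With the block 15.4% of all genes passed. The enzymes were spread widely between animals. Hmgcs1 was at 47.9, 31, 49.7 and 44.2 CPM untreated and 40.3, 22.2, 22.9 and 46.6 CPM after 20 Gy, lower in 3 of 4 animals (-0.35 ± 0.28, adjusted p = 0.658). Replicate 3 carried most of that difference, and it was also the animal with the highest untreated Idi1 (9.04 CPM against 2.09 to 4.45 CPM) and Fdft1 (66.7 CPM against 34.8 to 46.4 CPM). Its summed fibroblast markers were 6750 CPM untreated, against 33800 to 60800 CPM in the other 3 animals, and their part in the result was not tested.

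After 10 Gy, 0 of the 7 genes passed in wild mice at 12 d (0.264% of all genes passed, 1 of the 7 had an unadjusted p under 0.05, and DESeq2 called 0). In the other lists, 0 of 16 synthesis enzymes, 0 of 10 genes of SREBP processing and uptake, 0 of 12 of efflux and 0 of 10 of fatty acid synthesis passed after 20 Gy, with medians of -0.16, -0.29, 0.03 and -0.05. With the block, 1, 3, 1 and 0 passed, against 15.4% of all genes. The change at 20 Gy was then compared directly between wild and C56BL6 mice. None of the 7 differed (0.0% of genes passed, 0 of the 7 at an unadjusted p under 0.05, 0 by DESeq2 and 0 with the block), with differences from -0.26 ± 0.53 for Abca1 to 0.46 ± 0.60 for Idi1. Standard errors of this size do not show that the 2 populations responded alike.

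In *A. cahirinus* at 12 d the one gene of the 7 that passed after 20 Gy moved the other way. Idi1 was at 16.9, 16.6, 16.1 and 16.2 CPM untreated and at 23.6, 29.5, 22.2 and 19.6 CPM after 20 Gy. All treated libraries lay above the narrow untreated range, and the log2 change was 0.53 ± 0.12 (adjusted p = 0.0105, higher in 4 of 4 animals), in a comparison where 31.8% of 13462 genes passed and 13.8% passed as higher. Without replicate 1 or 3 its adjusted p was 0.0916 or 0.0815. As 1 of 7 genes, this call is near the 13.8% of all genes that passed as higher. After 10 Gy Idi1 was at 19.5, 22.2, 21.8 and 18.6 CPM, also above all untreated libraries, with a log2 change of 0.32 ± 0.09 (adjusted p = 0.0996, 0.0285 with the block, and 0.0144 by DESeq2; 2.87% of all genes passed without the block and 27.5% with it).

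Hmgcs1 in *A. cahirinus* was at 37.9, 35.9, 39.4 and 38.5 CPM untreated and 41.6, 53.5, 41.5 and 35.5 CPM after 20 Gy. It was higher in 3 of 4 animals but the groups overlapped (0.19 ± 0.12, adjusted p = 0.257). Fdft1 (0.19 ± 0.18, adjusted p = 0.465), Sqle (0.28 ± 0.20, adjusted p = 0.327), Insig1 (0.31 ± 0.21, adjusted p = 0.295) and Srebf2 (-0.12 ± 0.08, adjusted p = 0.264) did not pass. Abca1 was at 28, 67.7, 27.3 and 26.5 CPM untreated and 31.6, 96.5, 44.5 and 27.3 CPM after 20 Gy. Replicate 2 was the highest library for Abca1 in all 7 groups of this population. The groups overlapped, with or without it, and Abca1 was higher in 4 of 4 animals (0.42 ± 0.46, adjusted p = 0.517). In the blocked fit its log2 change was 0.37 (adjusted p = 0.0356), and 49.2% of all genes passed. Between 20 and 10 Gy at 12 d, where 0.457% of genes passed, 0 of the 7 differed (0 at an unadjusted p under 0.05, 0 by DESeq2), and Abca1 passed with the block (0.57, adjusted p = 0.00978; 17.9% of genes).

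The median of the 7 genes in *A. cahirinus* was 0.28, against 0.00 over all genes. Against 31.8% of all genes in this comparison (13.8% higher), the counts of the other lists were as follows. Of 15 other synthesis enzymes tested, 3 rose and 2 fell, a share near that of all genes. Those that rose were Hsd17b7, a sterol ketoreductase (1.20, adjusted p = 0.00154), Sc5d, the sterol desaturase (0.80, adjusted p = 0.00711), and Msmo1, and those that fell were Dhcr7 (-1.01, adjusted p = 0.000481) and Lss, which closes the sterol rings. Of 10 genes of SREBP processing and uptake, 3 rose and 2 fell. Mbtps2, a protease that releases SREBPs, was among those that fell, with a log2 change of -0.73 (adjusted p = 0.00137). Of 11 genes of efflux and intracellular handling 3 rose and 2 fell. Summed proliferation genes were at 299 to 406 CPM untreated and 69.2 to 82.4 CPM after 20 Gy, and summed fibroblast markers at 23400 to 26800 and 14800 to 24100 CPM. Endothelial markers (0.584 to 1.93 and 2.81 to 4.85 CPM) and immune cell markers (1.24 to 2.25 and 2.98 to 5.52 CPM) did not overlap between these groups, and the part of these genes in the changes was not tested. Of 9 genes of fatty acid synthesis 2 fell, Elovl6 (-1.22, adjusted p = 0.00259) and Fads2 (-0.93, adjusted p = 0.0241), and 0 rose.

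The difference between *A. cahirinus* and C56BL6 mice in the change from untreated to 20 Gy at 12 d was tested as an interaction over the genes with a symbol found once in each table. It passed for 3 of the 7 genes, all higher in *A. cahirinus*, where 18.8% of genes passed in either direction and 8.11% as higher. The difference in log2 change was 1.25 ± 0.20 for Idi1 (adjusted p = 0.00119), 0.85 ± 0.16 for Hmgcs1 (adjusted p = 0.00301) and 0.67 ± 0.20 for Fdft1 (adjusted p = 0.0280). Insig1 (0.78 ± 0.28, adjusted p = 0.0603, 0.0288 with the block) and Srebf2 (0.40 ± 0.14, adjusted p = 0.0626, 0.0360 with the block) passed with the block only, where 38% of genes passed. The difference was 0.45 ± 0.30 for Sqle (adjusted p = 0.314) and 0.03 ± 0.62 for Abca1 (adjusted p = 0.994). Without replicate 3 the count was 1, and without replicate 4 it was 2.

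Of 15 other synthesis enzymes, 9 differed in this interaction (18.8% of all genes, 8.11% higher), all higher in *A. cahirinus*, with a median of 0.67 against -0.04 over all genes. Mvd, the decarboxylase of the mevalonate pathway (0.90, adjusted p = 0.00347), Ebp (0.63, adjusted p = 0.00568) and Sc5d (0.97, adjusted p = 0.00867) had the smallest adjusted p. In the SREBP and uptake list 5 of 10 were higher, among them Srebf1 (0.90, adjusted p = 0.011), and 1 was lower, Mbtps2 (-0.74, adjusted p = 0.00609). The fatty acid list had 2 higher of 10 and a median of -0.28. Against wild mice, 0 of the 7 differed at 12 d (3.35% of genes passed, 1 of the 7 had an unadjusted p under 0.05, 0 by DESeq2 and 0 with the block), with differences from 0.18 ± 0.40 for Sqle to 0.80 ± 0.59 for Idi1. These interactions share the *A. cahirinus* libraries and are not independent of each other.

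**Figure D2:**
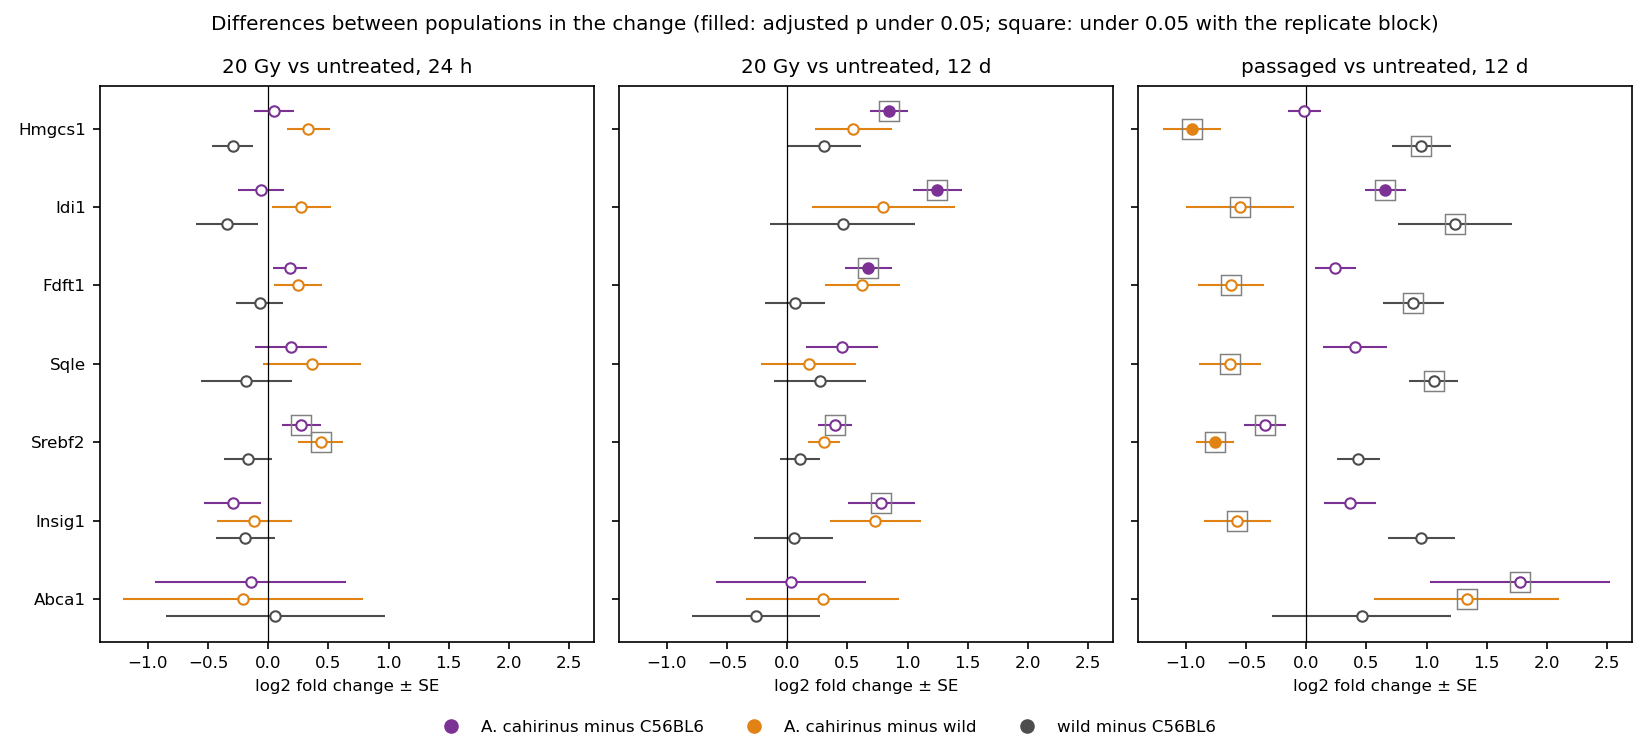
Difference between 2 populations in the log2 change (x axis, ± SE) of each gene (y axis), for 20 Gy against untreated at 24 h and 12 d and for passaged against untreated at 12 d. Filled points have an adjusted p under 0.05 and squares mark those under 0.05 with the replicate number as a block; at 12 d Idi1 (1.25), Hmgcs1 (0.85) and Fdft1 (0.67) are filled for *A. cahirinus* minus C56BL6.

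At 24 h none of the 7 genes passed in any population without the block, at either dose. In C56BL6 mice 0.0895% of genes passed at 20 Gy and 0.00700% at 10 Gy, with 2 of the 7 at an unadjusted p under 0.05 and 0 called by DESeq2 at each dose. Sqle was at 103.4, 67, 88.8 and 81.3 CPM untreated and 89.2, 54.5, 66.5 and 60.7 CPM after 20 Gy. It was lower in 4 of 4 animals while the groups overlapped, since replicate 1 was the highest library in both (-0.33 ± 0.18, adjusted p = 0.607, 0.000529 with the block). Srebf2 (-0.28 ± 0.12, block adjusted p = 0.00153) and Fdft1 (-0.22 ± 0.09, block adjusted p = 0.0138) were also lower in 4 of 4 animals. Abca1 was at 8.35, 28.3, 40.4 and 30.7 CPM untreated and 18.4, 37.4, 48.9 and 46.3 CPM after 20 Gy, higher in 4 of 4 animals with overlapping groups (0.49 ± 0.45, block adjusted p = 0.00175). With the block 17.6% of all genes passed at 20 Gy and 11.5% at 10 Gy, where the same 4 genes of the 7 passed. Between these doses 0 of the 7 differed (0.0% of genes passed, 0 at an unadjusted p under 0.05, 0 by DESeq2), and Abca1 passed with the block (0.20, adjusted p = 0.0398; 1.44% of genes).

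In wild mice at 24 h and 20 Gy, 0.0% of genes passed without the block and 12.5% with it; 3 of the 7 had an unadjusted p under 0.05 and DESeq2 called 0. Hmgcs1 was at 46.2, 49.2, 58 and 66.9 CPM untreated and at 36.1, 37.3, 39.9 and 40.8 CPM after 20 Gy. The groups did not overlap, and the log2 change was -0.48 ± 0.13 (adjusted p = 0.623, 0.00469 with the block). Sqle (-0.50 ± 0.32), Srebf2 (-0.44 ± 0.16) and Fdft1 (-0.28 ± 0.17) were each lower in 4 of 4 animals and passed with the block only (adjusted p = 0.00404, 0.0044 and 0.0481). At 10 Gy 0 of the 7 passed with or without the block, and 0.0% of all genes without it. Of the 7, 1 had an unadjusted p under 0.05 and DESeq2 called 0. The log2 changes at 10 Gy were -0.50 ± 0.19 for Hmgcs1, without overlap, -0.485 ± 0.31 for Sqle, -0.55 ± 0.30 for Srebf2 and -0.13 ± 0.20 for Fdft1. This group held the library with 17843 genes detected, whose part was not tested. Between 20 and 10 Gy none of the 7 passed with or without the block, and 0.0% of all genes passed without it. In *A. cahirinus*, 3.59% of genes passed at 20 Gy and 24.1% with the block. Insig1 (-0.38 ± 0.20, block adjusted p = 0.00904) was lower and Abca1 (0.35 ± 0.58, block adjusted p = 0.00209) higher in 4 of 4 animals, and the 4 enzymes and Srebf2 did not pass with or without the block. At 10 Gy 3.73% of genes passed, 27.6% with the block, and these 2 genes of the 7 again passed with the block only. No unadjusted p of the 7 was under 0.05 at either dose in this population, and DESeq2 called 0. The change at 20 Gy and 24 h did not differ between populations for any of the 7 without the block (2.09% of genes passed for *A. cahirinus* against C56BL6, 0.0% for the other pairs). The unadjusted p was under 0.05 for 1 of the 7 for *A. cahirinus* against wild mice and for 0 in the other pairs, and DESeq2 called 0. Srebf2 passed with it for *A. cahirinus* against C56BL6 (0.28, adjusted p = 0.0254) and against wild mice (0.42, adjusted p = 0.0144), where 16.8% and 7.25% of genes passed.

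**Figure D3:**
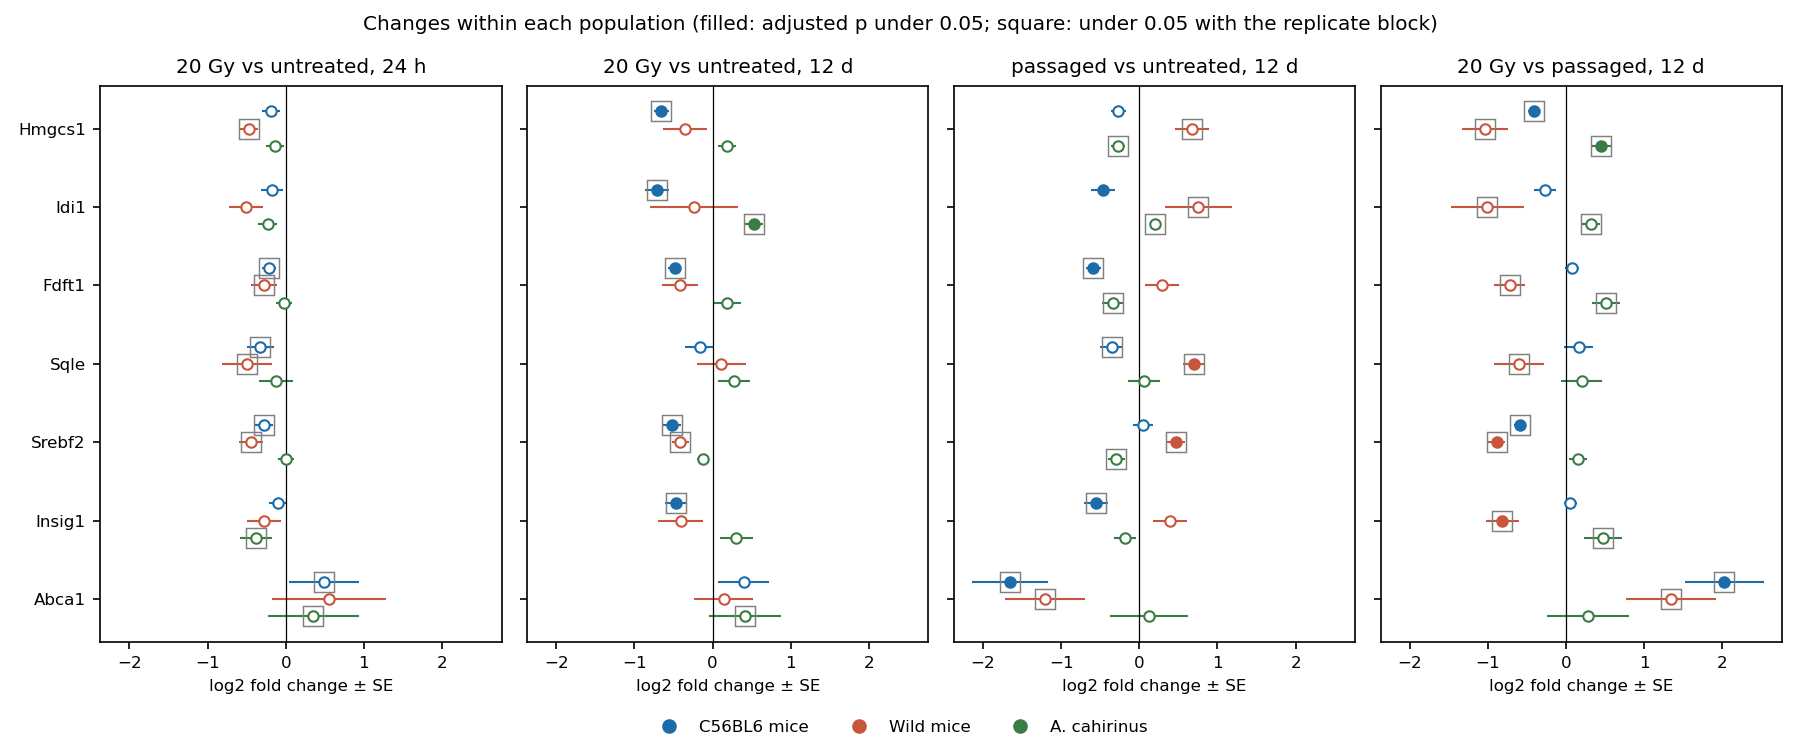
Log2 change (x axis, ± SE, 4 against 4 libraries) of each gene (y axis) in the 3 populations, for 20 Gy against untreated at 24 h and at 12 d, passaged against untreated, and 20 Gy against passaged. Filled points have an adjusted p under 0.05 and squares mark those under 0.05 with the replicate number as a block; at 12 d 5 genes are filled to the left in C56BL6 mice and Idi1 alone is filled to the right in *A. cahirinus*, while Abca1 is filled at -1.65 in passaged C56BL6 cultures.

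Passaged cultures were compared with untreated cultures of the 12 d series. In C56BL6 mice 4 of the 7 genes were lower, where 49.6% of genes passed and 25.5% as lower. Abca1 showed the largest change of the 7, from 73.0, 82.6, 145.0 and 136.3 CPM untreated to 8.95, 37.4, 50.03 and 42.1 CPM passaged. The groups did not overlap, and the log2 change was -1.65 ± 0.49 (adjusted p = 0.0223). Fdft1 was at 46.9, 39.4, 48.6 and 48.2 CPM passaged, below all untreated libraries (-0.59 ± 0.10, adjusted p = 0.00179). Insig1 (-0.55 ± 0.15, adjusted p = 0.0179) and Idi1 (-0.47 ± 0.16, adjusted p = 0.0400, 0.0534 with the block) were lower with overlapping groups. Hmgcs1 (-0.27 ± 0.10, adjusted p = 0.0578), Sqle (-0.35 ± 0.15, adjusted p = 0.0756, 0.0134 with the block) and Srebf2 (0.05 ± 0.13, adjusted p = 0.791) did not pass. With the block 60.1% of genes passed. The count was 5, 1, 2 and 1 without replicates 1, 2, 3 and 4, and the Abca1 call was lost without replicate 2, 3 or 4.

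In wild mice Sqle and Srebf2 were higher in passaged cultures. Sqle was at 52.9, 50.6, 57.2 and 62.6 CPM untreated and at 75.2, 108.0, 84.6 and 95.4 CPM passaged, without overlap (0.70 ± 0.13, adjusted p = 0.0228). Srebf2 was at 138.4, 136.3, 174.2 and 152.1 CPM passaged, above all untreated libraries (0.47 ± 0.12, adjusted p = 0.0457). These 2 of the 7 passed as higher, against 10.7% of genes in either direction and 5.51% as higher. In the blocked fit, where 31.9% of genes passed, Hmgcs1 (0.67, adjusted p = 0.00764) and Idi1 (0.87, adjusted p = 0.0218) were also higher and Abca1 (-1.40, adjusted p = 0.0401) lower. Abca1 was at 41.1, 42, 74.5 and 41.3 CPM untreated and 23.7, 4.90, 35.6 and 22.3 CPM passaged, without overlap. The 2 calls were both lost when replicate 1, 2 or 4 was left out.

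In passaged *A. cahirinus* cultures 0 of the 7 genes passed without the block, where 25.8% of genes passed; 4 of the 7 had an unadjusted p under 0.05, and DESeq2 called 2. With the block, where 49.5% passed, Hmgcs1 (-0.28, adjusted p = 0.0212), Fdft1 (-0.34, adjusted p = 0.00187) and Srebf2 (-0.30, adjusted p = 0.00722) were lower and Idi1 (0.20, adjusted p = 0.0407) higher. Without replicate 2 the count was 4. Abca1 was at 33, 86.4, 25.1 and 21.9 CPM passaged (0.13 ± 0.50, adjusted p = 0.877). Summed levels of 10 proliferation genes, measured in the same libraries, were 748 to 1050 CPM in passaged C56BL6 cultures against 86.6 to 361 CPM untreated, 489 to 963 against 54.6 to 326 CPM in wild mice, and 385 to 709 against 299 to 406 CPM in *A. cahirinus*. Other marker sums that did not overlap between passaged and untreated cultures were pericyte and smooth muscle markers in C56BL6 mice (mean 278 against 82.1 CPM), endothelial markers there (3.80 to 5.84 against 6.31 to 19.6 CPM) and melanocyte markers in C56BL6 (0.515 to 1.20 against 3.32 to 3.75 CPM) and wild mice (1.08 to 1.32 against 2.22 to 3.86 CPM). In *A. cahirinus* they were fibroblast markers (16400 to 22000 against 23400 to 26800 CPM), keratinocyte markers (2.64 to 3.49 against 8.72 to 15.2 CPM) and immune cell markers (3.71 to 4.61 against 1.24 to 2.25 CPM). The part of all these genes in the changes of the 7 genes was not tested.

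The change with passaging was then compared between populations. Against C56BL6 mice, Idi1 was higher in *A. cahirinus* by 0.66 ± 0.17 (adjusted p = 0.0116), 1 of the 7 where 27.7% of genes passed and 13.4% as higher, and the call was lost without replicate 2 or 4. As 1 of 7 genes, this call is near the share of all genes that passed as higher. With the block, where 45.2% passed, Abca1 was higher by 1.84 (adjusted p = 0.00183) and Srebf2 lower by -0.37 (adjusted p = 0.0252). Against wild mice, Srebf2 (-0.76 ± 0.16, adjusted p = 0.0237) and Hmgcs1 (-0.95 ± 0.24, adjusted p = 0.0479) were lower in *A. cahirinus*, 2 of the 7 where 3.46% of genes passed and 1.43% as lower. Both were lost without replicate 1 or 4, and 1 without replicate 3. All 7 differed with the block, where 23.8% of genes passed, 6 lower and Abca1 higher by 1.43 (adjusted p = 0.0418). Between wild and C56BL6 mice 0 of the 7 passed (0.0131% of genes passed; 6 of the 7 had an unadjusted p under 0.05, and DESeq2 called 2). With the block, where 4.02% of genes passed, Sqle (1.05, adjusted p = 0.0104), Hmgcs1 (0.94, adjusted p = 0.0157), Idi1 (1.33, adjusted p = 0.0319) and Fdft1 (0.90, adjusted p = 0.0332) were higher in wild mice.

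Other genes of the pathway were counted in the same comparison. The shares of all genes that passed were 49.6% in C56BL6 mice (25.5% lower), 10.7% in wild mice (31.9% with the block) and 25.8% in *A. cahirinus*. Of 16 further synthesis enzymes in C56BL6 mice, 1 rose with passaging and 8 fell, among them Ebp (-0.85, adjusted p = 0.000594) and Nsdhl (-0.67, adjusted p = 0.00267). In wild mice 2 rose, among them Lss (0.71, adjusted p = 0.016), and 0 fell, and with the block 8 rose and 1 fell. In *A. cahirinus* 1 of 15 rose (Nsdhl, 0.46, adjusted p = 0.0125) and 2 fell, Ebp (-0.47, adjusted p = 0.00757) and Pmvk (-0.27, adjusted p = 0.0474). The medians were -0.41, 0.47 and 0.02. Of the 10 genes of SREBP processing and uptake, 4 rose and 3 fell in C56BL6 mice, 2 rose in wild mice (Stard4, 1.34, adjusted p = 0.01, and Scarb1, 0.74, adjusted p = 0.0334), and 2 rose and 1 fell in *A. cahirinus*.

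Irradiated cultures were also set against passaged ones, a comparison that shares its 20 Gy libraries with the one against untreated cultures. In C56BL6 mice 41.6% of genes passed, 20.4% as higher and 21.2% as lower, and 3 of the 7 did: Hmgcs1 (-0.41 ± 0.07, adjusted p = 0.00303) and Srebf2 (-0.59 ± 0.08, adjusted p = 0.00077) were lower at 20 Gy, and Abca1 was higher by 2.03 ± 0.50 (adjusted p = 0.0127), each in 4 of 4 animals without overlap. The 3 of 7 called are a share near that of all genes. Mean Abca1 was 139.0 CPM at 20 Gy, 34.6 CPM passaged and 109.2 CPM untreated, and 20 Gy against untreated did not pass (adjusted p = 0.397). Idi1 (-0.27 ± 0.14, adjusted p = 0.166) and Fdft1 (0.08 ± 0.09, adjusted p = 0.507) did not pass. Neither did Sqle (0.16 ± 0.19, adjusted p = 0.517) or Insig1 (0.06 ± 0.09, adjusted p = 0.632). The Abca1 call was lost without replicate 2 (adjusted p = 0.0721) or 4 (adjusted p = 0.0603). In wild mice, where 10.5% of genes passed and 6.10% as lower, Srebf2 (-0.89 ± 0.10, adjusted p = 0.00577) and Insig1 (-0.81 ± 0.21, adjusted p = 0.0482) were lower without overlap. Blocked by animal, where 38% passed, all 7 passed, 6 lower and Abca1 higher by 1.43 (adjusted p = 0.0218). Without replicate 1 or 4 neither call was kept, and without replicate 2 the count was 1. In *A. cahirinus*, where 42.5% of genes passed and 19.5% as higher, Hmgcs1 was at 41.6, 53.5, 41.5 and 35.5 CPM at 20 Gy and 29, 37.5, 29.1 and 31.4 CPM passaged. It was higher in 4 of 4 animals although the groups overlapped (0.45 ± 0.13, adjusted p = 0.0242), and the call was lost without replicate 1 or 3. As 1 of 7 genes, this call is not above the share of all genes that passed as higher. With the block, where 56% of genes passed, Fdft1 (0.50, adjusted p = 0.00266), Insig1 (0.44, adjusted p = 0.0242) and Idi1 (0.31, adjusted p = 0.0407) were also higher. Summed proliferation genes were at 59.5 to 112 CPM at 20 Gy and 748 to 1050 CPM passaged in C56BL6 mice. They were at 60.2 to 153 and 489 to 963 CPM in wild mice, and at 69.2 to 82.4 and 385 to 709 CPM in *A. cahirinus*. Summed fibroblast markers did not overlap in C56BL6 (7280 to 8390 and 12400 to 19900 CPM) or wild mice (6450 to 19100 and 22600 to 29100 CPM) but overlapped in *A. cahirinus*. The part of these genes in the differences was not tested.

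Untreated cultures of the 2 mouse populations were compared at each time. At 12 d 3 of the 7 genes were lower in wild mice, where 2.93% of genes passed and 1.29% as lower, and all 7 had an unadjusted p under 0.05. Hmgcs1 averaged 43.2 ± 8.43 CPM in wild against 98.3 ± 11.8 CPM in C56BL6 mice (SD, n = 4; -1.10 ± 0.16, SE, adjusted p = 0.0105), Sqle 55.9 ± 5.28 against 112.4 ± 16.5 CPM (-0.92 ± 0.13, adjusted p = 0.00712) and Insig1 19.7 ± 6.59 against 48.3 ± 9.53 CPM (-1.21 ± 0.25, adjusted p = 0.0405). These groups did not overlap, and Idi1 (-1.30 ± 0.40, adjusted p = 0.156) and Srebf2 (-0.48 ± 0.15, adjusted p = 0.157) did not overlap either but did not pass. The count was 1 without replicate 2 or 4 and 2 without replicate 1. Summed immune cell markers did not overlap (10.5 to 33.1 CPM in wild, 6.82 to 9.63 CPM in C56BL6 mice). Fibroblast markers were at 6750 to 60800 CPM in wild and 17600 to 20800 CPM in C56BL6 mice. The part of these markers in the differences was not tested. At 24 h 0 of the 7 differed (5.70% of genes passed, 1 of the 7 had an unadjusted p under 0.05, and DESeq2 called 0), with log2 differences from -0.46 ± 0.60 for Abca1 to 0.35 ± 0.14 for Fdft1. The 2 times, which differ in batch label too, are given side by side only.

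How the 7 genes varied together was described over the 28 libraries of each population, as Pearson's r of log2 CPM after subtracting the mean of each time; the points share animals, groups and batches, and no p is given. Hmgcs1 and Idi1 had r = 0.851 for C56BL6, 0.812 for wild and 0.583 for *A. cahirinus* libraries, and Hmgcs1 and Insig1 had 0.741, 0.815 and 0.888. In *A. cahirinus* replicate 2 was the highest library for Insig1 in all 7 groups, and for Hmgcs1 in all but the untreated group at 12 d. Hmgcs1 and Fdft1 had 0.674 and 0.780 in the mice and 0.038 in *A. cahirinus*. Fdft1 and Sqle went from 0.672 and 0.665 in the mice to -0.284 in *A. cahirinus*, where replicate 2 was the lowest library for Fdft1 in all 7 groups and the highest for Sqle. Abca1 and Sqle had r = -0.381 and -0.496 in the mice (C56BL6 first) and 0.869 in *A. cahirinus*, where replicate 2 was the highest library for both genes in all 7 groups.

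Among 11992 genes measured in all 3 populations, the 10 with the highest mean r to the average of Hmgcs1, Idi1, Fdft1 and Sqle were then listed. Insig1 came first (mean r 0.833), and the list also held the sterol demethylase Cyp51 (0.815), Msmo1 (0.755), Wdr45b (0.694), Stard4 (0.680), Umad1 (0.652), Slc36a4 (0.640) and Scarb1 (0.637). For Insig1 r was 0.738 in C56BL6, 0.903 in wild and 0.858 in *A. cahirinus* libraries. The part of replicate 2 in the *A. cahirinus* values was not tested. Srebf2 ranked 11 (0.636; 0.705 for C56BL6, 0.854 for wild and 0.348 for *A. cahirinus* libraries), and Abca1 ranked 5902.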

How the data were processed

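Counts per gene were deposited by the authors, 1 table for both mouse populations (56 columns) and 1 for *A. cahirinus* (28 columns). Per the file headers they were made with featureCounts 2.0.3, on an Ensembl release 108 annotation of GRCm39 for mouse and on an assembly named AcoCah2 for *A. cahirinus*, without strand and without multi-mapped or overlapping reads. Trim Galore and HISAT2 are named in the submitters' processing notes, with no versions. Of 56980 mouse identifiers 56236 had a symbol.

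Counts were tested with edgeR 4.0.16 (TMM, filterByExpr, quasi-likelihood test, Benjamini-Hochberg adjustment over all genes tested, threshold 0.05), 4 against 4 libraries, and population differences as interactions over 18109 shared symbols. SE belongs to the log2 change and was derived as its absolute value over the square root of the test's F value. SD belongs to CPM or RPKM. The replicate number names 1 animal within a population, and same-numbered libraries deviated together in all 24 comparisons checked (mean correlation 0.504 to 0.887, lowest pair 0.358), so the numbers pair the samples. The fit with the number as a block is given where it changes a call. P-values measure the spread between these cultures. Without the block that spread includes the differences between animals, although the samples are paired. A gene that did not pass without the block is therefore not shown to be unchanged. Alternatives were DESeq2 1.42.0, its size factors (RLE), no filter, the block, all groups in 1 fit and leaving out each number. The scripts were tested on simulated counts. The 7 genes, the other lists and the tests were chosen with earlier results of these data known. Not all of the 7 are named in every comparison. Counts of the other lists are given for some comparisons only, with genes among the 3 smallest adjusted p. Other list genes named were chosen after their values were seen. Some genes of these lists are included in the counts and are not reported here by name.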

Additional observations from a re-analysis of the deposited data

Results flagged for a closer look

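Single libraries lay far from the other 3 of their group in 9 of 147 groups of 4 checked by gap over range, a rule that chance meets in about 1 of 20 groups. In *A. cahirinus* replicate 2 was the high library in 7 of them: Abca1 at 110.6 CPM (24 h, 10 Gy), 87.2 CPM (24 h, untreated), 68.1 CPM (12 d, 10 Gy) and 67.7 CPM (12 d, untreated), Insig1 at 17 CPM (24 h, untreated) and 14.8 CPM (12 d, passaged), and Sqle at 37.3 CPM (12 d, 10 Gy). The others were Abca1 at 74.5 CPM in wild replicate 3 (12 d, untreated) and Idi1 at 9.59 CPM in C56BL6 replicate 3 (24 h, 10 Gy).

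Changes that differed between populations by edgeR's interaction test were, for 20 Gy at 12 d in *A. cahirinus* against C56BL6 mice, Idi1 by 1.25, Hmgcs1 by 0.85 and Fdft1 by 0.67. For passaging they were Idi1 by 0.66 against C56BL6 mice, and Hmgcs1 by -0.95 and Srebf2 by -0.76 against wild mice.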

How the results depend on the processing

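Under the alternatives, 0 of 367 values of single genes that passed in either fit changed sign, as did 71 of 1824 that passed in neither. Values that passed were selected for lying away from 0, and the fits share libraries, so the 0 says little about how stable they are. Counts below are of the 7 genes past an adjusted p of 0.05, given where they moved by over 1.5 times, and in all 5 comparisons of doses outside *A. cahirinus* at 12 d no gene passed without the block. With the replicate number as a block (paired by animal) the count was 4 at 24 h in C56BL6 mice at 20 Gy and at 10 Gy and 1 between these doses, 4 in wild mice at 24 h and 20 Gy, 1 in wild mice at 12 d and 20 Gy, 5 for wild passaging and 7 for wild 20 Gy against passaged. In *A. cahirinus* it was 2 at 24 h for each dose, 2 at 12 d and 20 Gy, 1 at 10 Gy, 1 between doses at 12 d, 4 for passaging and 4 for 20 Gy against passaged. For differences between populations it was 1, 5 and 3 for *A. cahirinus* against C56BL6 (24 h, 12 d, passaging), 1 and 7 against wild mice (24 h, passaging) and 4 for wild against C56BL6 passaging. Smaller moves included 5 for C56BL6 mice at 12 d and 10 Gy with the block and by DESeq2, and 3 for wild passaging by DESeq2. DESeq2 gave 1 for wild mice at 12 d and 20 Gy, 4 for wild 20 Gy against passaged, 1 for *A. cahirinus* at 12 d and 10 Gy, 2 for its passaging and 3 for its 20 Gy against passaged, 5 for wild against C56BL6 untreated at 12 d, 5 and 2 for *A. cahirinus* against C56BL6 (20 Gy at 12 d, passaging) and 2 for wild against C56BL6 passaging. RLE gave 1 and 3 for *A. cahirinus* passaging and 20 Gy against passaged. Without a filter the count was 1 for wild passaging, for wild 20 Gy against passaged and for *A. cahirinus* against wild passaging. With all groups in 1 fit it was 1 for wild passaging, 3 for *A. cahirinus* 20 Gy against passaged, 5 for wild against C56BL6 at 12 d, 5 for *A. cahirinus* against C56BL6 at 12 d and 1 for *A. cahirinus* against wild passaging. Leaving out each replicate number gave 2 to 5 for C56BL6 mice at 12 d and 20 Gy, 0 to 5 at 10 Gy, 1 to 5 for passaging and 2 to 3 for 20 Gy against passaged. In wild mice it gave 0 to 2 for both passaging and 20 Gy against passaged. In *A. cahirinus* it gave 0 to 1, 0 to 4 and 0 to 3 for 20 Gy, passaging and 20 Gy against passaged. The range was 1 to 3 for wild against C56BL6 untreated cultures at 12 d. For interactions it gave 1 to 3 and 0 to 1 (*A. cahirinus* against C56BL6, 20 Gy and passaging) and 0 to 2 (against wild, passaging). The cause of these moves was not tested, and the fits that leave one out also hold fewer samples. Of 245 single-gene results, 227 kept direction and side of the threshold under DESeq2, 241 under RLE, 233 with all groups and 240 without a filter, and 173 of 231 with the block. A count of 3 corresponds to 0.0568 to 0.172 CPM, below every value of the 7 genes. Time and batch cannot be told apart.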
